A study of Mus musculus with 24 samples.

Results

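The genes whose response to heat shock (HS) depended on HSF1 were sought in skeletal muscle of mice, as a difference of 2 responses on the log2 scale. The change with HS in Hsf1-/- mice was set against the change with HS in wild type mice, so that a value below 0 means a smaller rise, or a larger fall, without Hsf1. The comparison used 8 of the 24 mice sequenced in the series, 2 in each of 4 groups. The remaining 16 mice (HSP990 experiment and R6/2 mice) served for the estimate of the spread, and the 8 wild type and Hsf1-/- mice of the HSP990 experiment gave a second readout. RNA came from quadriceps femoris, a fast thigh muscle, 4 h after treatment. The wild type groups were wild type control and wild type HS, both 12 weeks old. The Hsf1-/- groups were Hsf1-/- control and Hsf1-/- HS, both 10 weeks old and homozygous for loss of Hsf1 in every tissue. All carried the CBA x C57BL/6 F1 background. Under isoflurane, a heating pad brought HS mice to 41.5 ± 0.2°C in the core, where they stayed for 15 min. Control mice were anaesthetised likewise and kept at 36.9 ± 0.2°C for 21 min. In the HSP990 experiment, NVP-HSP990, an inhibitor of HSP90, was given by gavage at 12 mg/kg to wild type mice of 12 weeks and Hsf1-/- mice of 8 weeks, and their controls received vehicle.

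HSF1 is the transcription factor that drives the classical heat shock response (HSR). In unstressed cells it is held inactive by chaperones. When misfolded protein draws the chaperones away, it forms trimers and binds heat shock elements, arrays of inverted GAA units, in the promoters of chaperone genes. In muscle these chaperones keep myosin and other abundant, long-lived proteins folded, but heat also activates hormonal, immediate early and metabolic programs that other factors drive.

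The libraries of these 8 mice held 23883708 to 33192334 counts each. CPM (counts relative to the TMM-scaled library total) serve as the measure of level, and a gene was called when its Benjamini-Hochberg adjusted p in edgeR's quasi-likelihood test was below 0.05. The 13 markers of skeletal muscle were all expressed, with mean levels of 2324 to 74431 CPM. No marker of muscle, endothelium, leukocytes, adipocytes, fibroblasts, smooth muscle, Schwann or erythroid cells was called in the difference. With 0.160% of all genes called there, 0 calls among so few markers is near the background. Summed adipocyte markers were at 625 and 199 CPM in wild type control mice and 299 and 209 CPM in Hsf1-/- control mice. Summed smooth muscle markers were at 206 and 174 CPM, and 297 and 405 CPM, in the same groups. In bulk tissue, fewer cells of a type and less RNA per cell cannot be told apart. Hsf1 itself was at 60.8 and 63.9 CPM in wild type control mice, 64.9 and 68.5 CPM in wild type HS mice, 27.1 and 23.1 CPM in Hsf1-/- control mice and 27.6 and 29.0 CPM in Hsf1-/- HS mice. It stood lower in all 4 Hsf1-/- mice. The control mice were at 40.2% of the wild type control level, so reads on the locus remained. Of 4 Y-linked genes (Ddx3y, Eif2s3y, Kdm5d and Uty), none had a count in the 4 wild type HS and control mice, which allows at most 0.125 CPM, whereas the other 12 wild type and Hsf1-/- libraries held 3916 to 8729 counts on them. Age and the sign of sex in these genes therefore cannot be told apart from genotype in the HS experiment. In the HSP990 experiment both genotypes had Y-linked counts, but age went with genotype there too (8 weeks in Hsf1-/- and 12 weeks in wild type mice).

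Of 13754 genes tested, 22 were called in the difference of the 2 heat shock responses, which is 0.160% of all genes. All 22 had a lower change in Hsf1-/- mice and 0 had a higher one. At an unadjusted p below 0.05 the split was 260 genes with a lower change (1.89%) and 251 with a higher one (1.82%), and DESeq2 on the same 24 libraries called 38 lower and 2 higher (Herc2 and Ccl2). Each of the 22 had also been called higher with HS in wild type mice, where 219 genes rose (1.59%) and 64 fell (0.465%). With scaling by library size alone the wild type split was 161 higher and 155 lower, and the median log2 change of all genes moved to -0.15, so changes are given relative to the bulk of the genes. By edgeR's calls, 0 of the 64 falls differed between the genotypes, although 19 of them had an unadjusted p below 0.05 in the difference. A gained response needed a call in Hsf1-/- mice, where 1 gene was called. The count of 0 gained responses was thus nearly fixed in advance. In every one of the 22 genes both wild type HS mice lay above the other 6 mice of the experiment. The choice of these genes on the same mice favours that pattern, and its share over all genes was not counted. The median log2 change of the 22 genes with HS was 1.70 in wild type and -0.06 in Hsf1-/- mice, against -0.01 and 0.00 over all genes tested. Within Hsf1-/- mice the 22 changes ran from -0.54 to 0.27. The smallest p among them in edgeR's test was 0.035 unadjusted and 0.51 adjusted. Choosing the 22 by their difference favours small changes here.

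**Figure D1:**
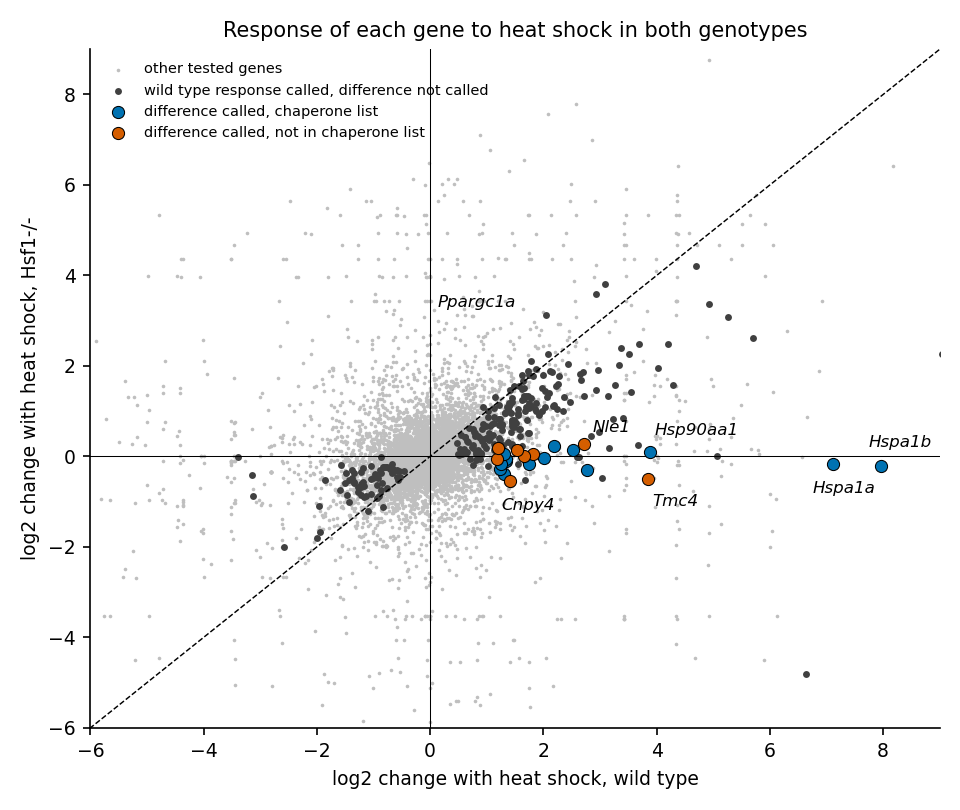
Log2 change with HS in wild type mice (x axis) against the log2 change with HS in Hsf1-/- mice (y axis), 1 point a gene, of 13754 tested; 10 genes lie outside the axes and the dashed line marks equal change. The 22 genes called in the difference lie along the horizontal line at 0, while many genes called in wild type only (dark points) lie between that line and the dashed one.

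The 22 genes split into 14 of a list of 60 tested chaperones and co-chaperones and 8 that are not on it. The promoters of the called genes were read first for the element that HSF1 binds. RefSeq promoters (GRCm38.p6, 250 bases before to 50 bases after the start) were at hand for 20 of the 22. The stretches that hold an element upstream of the start are shown 5′ to 3′ on the gene's strand, with the matched units in capitals, since all 7 genes with an element there were chaperones.
Hspa1b: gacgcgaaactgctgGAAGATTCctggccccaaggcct
Hspa1a: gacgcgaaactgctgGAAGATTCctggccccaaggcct
Dnaja1: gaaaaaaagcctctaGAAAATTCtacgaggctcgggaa
Dnaja4: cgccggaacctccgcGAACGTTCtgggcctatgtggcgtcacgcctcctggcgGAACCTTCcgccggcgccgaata
Hsph1: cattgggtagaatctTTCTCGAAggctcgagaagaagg
Hspd1: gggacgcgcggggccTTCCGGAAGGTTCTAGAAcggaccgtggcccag
Hspe1: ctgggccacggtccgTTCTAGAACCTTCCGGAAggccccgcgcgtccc
In GRCm38.p6 these are chr17:34959320-34959357 (Hspa1b, minus strand), chr17:34972238-34972275 (Hspa1a, minus), chr4:40722329-40722366 (Dnaja1, plus), chr9:54699454-54699529 (Dnaja4, plus), chr5:149636347-149636384 (Hsph1, minus) and chr1:55088044-55088091, which Hspd1 reads on the minus and Hspe1 on the plus strand. The 38 bases of Hspa1a and Hspa1b are the same letters, and Hspd1 and Hspe1 share 1 element between them.

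A pair of units (GAANNTTC or TTCNNGAA, either strand) was present in 9 of the 20 promoters (45%), against 14% of the 10838 promoters of tested genes. It was present in 8 of 13 chaperone promoters (61.5%) and in 1 of 7 promoters of the other called genes (14.3%), that of Cnpy4, where it begins 16 bases after the start. Bag3 also holds its pair after the start, at base 43. With 1 more unit required on either side, 3 of 20 promoters matched (15%), those of Hspd1, Hspe1 and Hsph1, against 0.591% of all. In Hsph1 this match begins 37 bases after the start, outside the stretch printed above, which holds a pair. Among 153 promoters of genes that rose in wild type mice but were not called in the difference, 27 held the pair (17.6%) and 1 held 3 units (0.654%). An array of 3 units also counts as a pair, and no match says only that these letters are absent from this window. A window of 1000 bases before the gene start in mm9 was added after the data had been seen. The pair was found there for 8 of the 14 called chaperones (57.1%) and for 5 of the 8 other called genes (62.5%). It was found for 42% of all tested genes, so the gap in the pair between the groups was not seen there. In that window 3 units were found for 2 of the 14 chaperones (14.3%), 0 of the 8 others and 1.87% of all tested genes. Dnaja1, Dnaja4 and Hsph1, which hold a pair before the RefSeq start, had no match in the mm9 window.

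The inducible HSP70 genes, whose products bind exposed hydrophobic stretches of clients, changed most. Hspa1b (chr17:35093381-35096183 in mm9) was at 1.84 and 4.89 CPM in wild type control mice, 853 and 858 CPM in wild type HS mice, 1.27 and 1.18 CPM in Hsf1-/- control mice and 1.21 and 0.914 CPM in Hsf1-/- HS mice. Hspa1a (chr17:35106144-35109069) was at 3.37 and 11.1 CPM, 961 and 1063 CPM, 3.34 and 2.13 CPM, and 3.00 and 1.91 CPM in the same order of groups. Only the wild type HS mice were high, with no overlap. The log2 difference of responses was -8.18 ± 0.90 (SE) for Hspa1b, adjusted p = 0.00036, and -7.28 ± 0.84 for Hspa1a, adjusted p = 0.00042. Each has 1 near-identical copy in the genome, so the split of reads between copies is uncertain. Hspa1l, a neighbour of Hspa1a that is best known from testis, was at 29.7 and 38.7 CPM, 138 and 139 CPM, 25.9 and 27.0 CPM, and 23.6 and 28.01 CPM, with a difference of -2.05 ± 0.30, adjusted p = 0.0039.

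Partners that load or unload HSP70 showed the same absence of a rise. Dnaja1, an HSP40 that stimulates the HSP70 ATPase, was at 4.45 and 4.78 CPM in wild type control mice, 29.1 and 34.3 CPM in wild type HS mice, 2.27 and 2.17 CPM in Hsf1-/- control mice and 1.79 and 1.83 CPM in Hsf1-/- HS mice, with a difference of -3.08 ± 0.28 and an adjusted p of 5.2e-05. Dnaja4, a second HSP40, was at 109 and 145 CPM, 799 and 664 CPM, 97.7 and 124 CPM, and 144 and 102 CPM, with a difference of -2.38 ± 0.43 and an adjusted p of 0.029. Hsph1, a nucleotide exchange factor of the HSP110 family, was at 114 and 113 CPM, 367 and 391 CPM, 53.9 and 65.4 CPM, and 44.7 and 60.7 CPM, and its difference was -1.92 ± 0.26. Here the Hsf1-/- mice already lay below wild type mice before heat, in both genes for which this was called (Dnaja1, untreated log2 difference -1.05 ± 0.20, and Hsph1, -0.93 ± 0.18). Bag3, which couples HSP70 to selective autophagy of damaged filaments, was at 214 and 278 CPM, 1074 and 1178 CPM, 207 and 205 CPM, and 256 and 227 CPM, with a difference of -1.96 ± 0.24. Hspa4l, a further HSP110 relative, had a difference of -1.69 ± 0.29, with 32.7 and 30.9 CPM in wild type HS mice and at most 13.2 CPM in the other 6.

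The HSP90 branch and its co-chaperones formed a further group. Hsp90aa1, the inducible cytosolic HSP90, was at 10.3 and 11.2 CPM in wild type control mice, 156 and 164 CPM in wild type HS mice, 8.201 and 8.65 CPM in Hsf1-/- control mice and 10.0 and 8.07 CPM in Hsf1-/- HS mice. Its difference of -3.79 ± 0.35 had an adjusted p of 5.2e-05, and 2 near-identical copies exist in the genome. By qPCR in a larger set of mice, the paper reports no induction of this gene by heat shock in wild type muscle. The counts show a rise instead, and the cause of this disagreement was not tested. The constitutive Hsp90ab1 was at 1437 and 1571 CPM, 2537 and 2556 CPM, 1067 and 884 CPM, and 1179.8 and 1026 CPM. It rose in wild type mice (0.76 ± 0.14, adjusted p = 0.0070), but the difference of responses, -0.58 with a 95% interval of -0.99 to -0.17, was not called (adjusted p = 0.95). Stip1, which bridges HSP70 and HSP90, differed by -1.44 ± 0.19, and Ahsa2, a homologue of the HSP90 ATPase activator, by -1.41 ± 0.22. Unc45b, the chaperone that folds the myosin head in striated muscle, was at 575 and 562 CPM, 1426 and 1371 CPM, 397 and 425 CPM, and 403 and 448 CPM, with a difference of -1.25 ± 0.18 and an adjusted p of 0.0039.

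The mitochondrial chaperonin rose with both of its parts in wild type mice only. Hspd1, its barrel, was at 98.7 and 89.3 CPM in wild type control mice, 221 and 221 CPM in wild type HS mice, 87.2 and 91.5 CPM in Hsf1-/- control mice and 70.1 and 77.1 CPM in Hsf1-/- HS mice. Hspe1, its lid, was at 26.5 and 24.4 CPM, 61.3 and 68.0 CPM, 17.7 and 14.6 CPM, and 15.6 and 15.3 CPM. The differences were -1.51 ± 0.17 (adjusted p = 0.00042) and -1.41 ± 0.27 (adjusted p = 0.049). Both have 1 near-identical copy in the genome.

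Not all chaperones that rose in wild type mice were called in the difference. Of the 60 tested, 22 rose in wild type mice, 0 were called in Hsf1-/- mice and 14 were called in the difference. Over all genes these shares were 1.59%, 0.00727% and 0.160%. The median log2 difference was -0.39 over the list and 0.01 over all genes. The 8 that rose but missed the threshold were Dnajb1, Hspb1, Hsp90ab1, Serpinh1, St13, Ptges3, Ahsa1 and Fkbp4, with differences between -2.40 and -0.47, all below 0. DESeq2 on the 24 libraries called 3 of the 8 lower in the difference, Dnajb1 (adjusted p = 0.0023), Hspb1 (0.0027) and Serpinh1 (0.0018). Dnajb1, the HSP40 most tied to HSP70 induction, was at 11.2 and 8.17 CPM in wild type control mice, 25.6 and 61.9 CPM in wild type HS mice, 8.56 and 6.52 CPM in Hsf1-/- control mice and 8.83 and 8.70 CPM in Hsf1-/- HS mice. The wild type HS mice differed widely from each other, and the difference was -1.97 (95% interval -2.89 to -1.04, adjusted p = 0.15). Hspb1, a small HSP that binds filaments, was at 24.0 and 34.8 CPM, 214 and 209 CPM, 17.1 and 14.8 CPM, and 27.2 and 16.4 CPM, with a difference of -2.40 (-3.60 to -1.20, adjusted p = 0.22). After HSP990 both differences were called, at -5.03 ± 0.45 and -3.26 ± 0.57.

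Beyond the chaperones, 8 genes were called. Nle1 (chr11:82714270-82721913 in mm9, minus strand), a WD-repeat protein of large ribosomal subunit assembly, was at 12.3 and 9.70 CPM in wild type control mice, 76.6 and 68.5 CPM in wild type HS mice, 6.13 and 6.62 CPM in Hsf1-/- control mice and 7.31 and 8.07 CPM in Hsf1-/- HS mice. The rise of 2.72 ± 0.22 on the log2 scale in wild type mice compared with 0.27 (95% interval -0.20 to 0.74) in Hsf1-/- mice, a difference of -2.45 ± 0.31, adjusted p = 0.0010. The level rose further after HSP990, to 200.5 and 257 CPM in wild type mice against 6.10 and 6.57 CPM in Hsf1-/- mice, and the difference of the HSP990 responses was -5.06 ± 0.32. The HS and HSP990 intervals for Nle1 do not overlap (-3.11 to -1.79 and -5.73 to -4.39). That gap was not tested.

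Membrane traffic and lipid genes were among the 8. Scamp3, a carrier protein of secretory and endosomal vesicles, was at 50.5 and 50.3 CPM in wild type control mice, 115 and 118 CPM in wild type HS mice, 44.4 and 45.4 CPM in Hsf1-/- control mice and 49.6 and 52.0 CPM in Hsf1-/- HS mice. Its difference, -1.03 ± 0.17, was the smallest of the 22 and had an adjusted p of 0.011. Mboat7, the acyltransferase that puts arachidonic acid into phosphatidylinositol, was at 18.2 and 18.2 CPM, 52.7 and 53.3 CPM, 17.2 and 17.3 CPM, and 17.6 and 20.4 CPM, with a difference of -1.40 ± 0.24 and an adjusted p of 0.017. In both genes the wild type HS mice stood apart and the other 6 mice lay close together. Tmc4, a member of the transmembrane channel-like family and the next gene downstream of Mboat7, was at 1.17 and 0.560 CPM, 12.0 and 12.8 CPM, 0.597 and 0.851 CPM, and 0.622 and 0.397 CPM. Its difference of -4.34 ± 0.79 had an adjusted p of 0.033, on low counts in all but the wild type HS mice.

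Slc5a3, the sodium-coupled importer of the osmolyte myo-inositol, was at 9.94 and 9.44 CPM in wild type control mice, 20.1 and 23.8 CPM in wild type HS mice, 9.16 and 10.6 CPM in Hsf1-/- control mice and 10.5 and 8.62 CPM in Hsf1-/- HS mice. Of 12 tested non-chaperone genes on a list of known HSF1 targets, it was the 1 called in the difference (-1.23 ± 0.22, adjusted p = 0.033). That call was lost with library size only (adjusted p = 0.16), with only the 8 libraries (0.11) and with only the 16 wild type and Hsf1-/- libraries (0.071). Slc5a3 overlaps Mrps6 by 29152 bases on the same strand, and Mrps6 changed by 0.34 with HS in wild type mice (adjusted p = 0.29). Of the other listed targets, Hmox1, which degrades haem, rose in wild type mice by 1.59 ± 0.24 and had a difference of -1.15 (-1.85 to -0.45, adjusted p = 0.71), and Dedd2, a death effector domain protein, rose by 0.81 ± 0.16 with a difference of -0.75 (-1.25 to -0.26, adjusted p = 0.87). The median difference of the 12 was -0.22.

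The remaining 3 genes act in unrelated parts of the cell. Tubgcp4, a subunit of the gamma-tubulin ring from which microtubules grow, was at 14.2 and 14.0 CPM in wild type control mice, 43.9 and 54.8 CPM in wild type HS mice, 12.6 and 14.3 CPM in Hsf1-/- control mice and 12.4 and 15.3 CPM in Hsf1-/- HS mice, with a difference of -1.76 ± 0.30 (adjusted p = 0.021). It overlaps Trp53bp1 on the other strand by 5490 bases, and Trp53bp1 changed by 0.12 in wild type mice. Aox1, an aldehyde oxidase, was at 45.2 and 43.0 CPM, 129 and 151 CPM, 31.9 and 33.4 CPM, and 29.9 and 35.4 CPM, with a difference of -1.67 ± 0.31 (adjusted p = 0.034). Cnpy4, an endoplasmic reticulum protein of the canopy family, was at 4.54 and 5.97 CPM, 13.2 and 14.8 CPM, 5.41 and 4.92 CPM, and 3.19 and 3.89 CPM, with a difference of -1.96 ± 0.36 (adjusted p = 0.034). Its Hsf1-/- HS mice were the lowest of the 8.

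**Figure D2:**
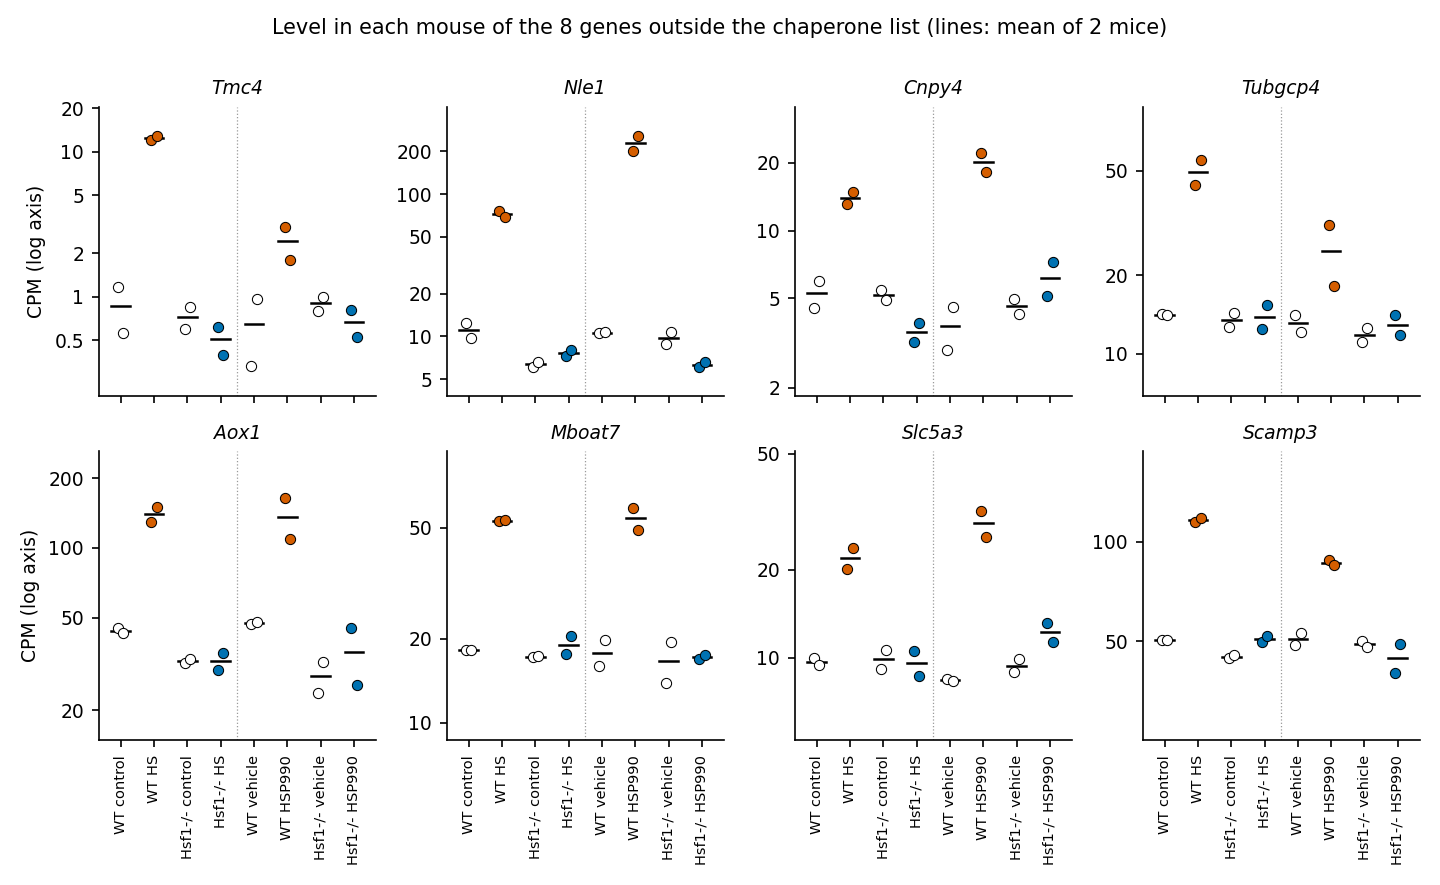
CPM (log axis) of the 8 called genes outside the chaperone list in each mouse, 4 groups of the HS experiment left and 4 groups of the HSP990 experiment right of the dotted line, with the mean of 2 mice as a bar. The wild type HS mice (orange, left) lie above the other 6 mice in every panel, and the wild type HSP990 mice (orange, right) above the other 6 of their experiment; the wild type levels of Tmc4 and Tubgcp4 were lower after HSP990 than after HS, which was not tested.

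Some called genes are neighbours. In mm9, 8 of the 22 lay within 5000 bases of another called gene. Hspa1a and Hspa1l are read away from each other across 578 bases of chromosome 17, and Hspd1 and Hspe1 overlap head to head by 112 bases on chromosome 1. Nle1 and Unc45b are likewise divergent, 2138 bases apart on chromosome 11 (Nle1 chr11:82714270-82721913, Unc45b chr11:82724052-82756905). On chromosome 7, Mboat7 (chr7:3629392-3645125) and Tmc4 (chr7:3617392-3629126) follow each other on the minus strand, 265 bases apart, so reads running past the end of Mboat7 would fall on Tmc4. Whether that added to the Tmc4 counts was not tested. Leng1, which overlaps the end of Tmc4 by 51 bases on the same strand, changed by 0.59 with HS in wild type mice (adjusted p = 0.095). Other neighbours were not called in wild type mice or in the difference. Fam189b and Clk2 beside Scamp3 changed by 0.30 and 0.02 in wild type mice, with differences of -0.22 and 0.01, and Taf6, 33 bases from Cnpy4, changed by 0.02 with a difference of 0.05. Fndc8, which overlaps Nle1 by 34 bases, changed by 1.19 with a difference of -1.36, at mean levels below 0.1 CPM in all 4 groups. Sgo2a beside Aox1 had a difference of -0.84, and Mrps6, which overlaps Slc5a3, had one of -0.46.

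The mice of the HSP990 experiment gave a second readout of the 22 genes. None of these mice entered the HS comparison, although all share the fitted spread. All 22 had a lower change in Hsf1-/- than in wild type mice after HSP990, and in all 22 both wild type HSP990 mice lay above the other 6 mice of that experiment. The share of all genes with that separation was not counted. The HSP990 difference was called lower for 18 of the 22, against 0.327% of all genes (45 genes), so that the shared genes were 81.8% of the HS list and 40% of the HSP990 list. Among the genes outside the chaperone list the call was shared by 5 of 8 (Nle1, Slc5a3, Mboat7, Cnpy4 and Scamp3) and among the chaperones by 13 of 14, all but Dnaja4. The medians of the 22 were -1.84 for HS and -1.99 for HSP990.

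The 4 genes without a call after HSP990 still had values below 0. Tmc4 differed by -2.27 (95% interval -3.91 to -0.63, adjusted p = 0.45), with 3.04 and 1.80 CPM in wild type HSP990 mice. Aox1 differed by -1.18 (-1.83 to -0.53, adjusted p = 0.18), Tubgcp4 by -0.77 (-1.41 to -0.13, adjusted p = 0.60) and Dnaja4 by -1.74 (-2.63 to -0.85, adjusted p = 0.13). The intervals are not adjusted for the number of genes tested. For Unc45b the HSP990 difference was larger than that for HS, -2.35 ± 0.18 against -1.25 ± 0.18, and as for Nle1 this gap was not tested.

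**Figure D3:**
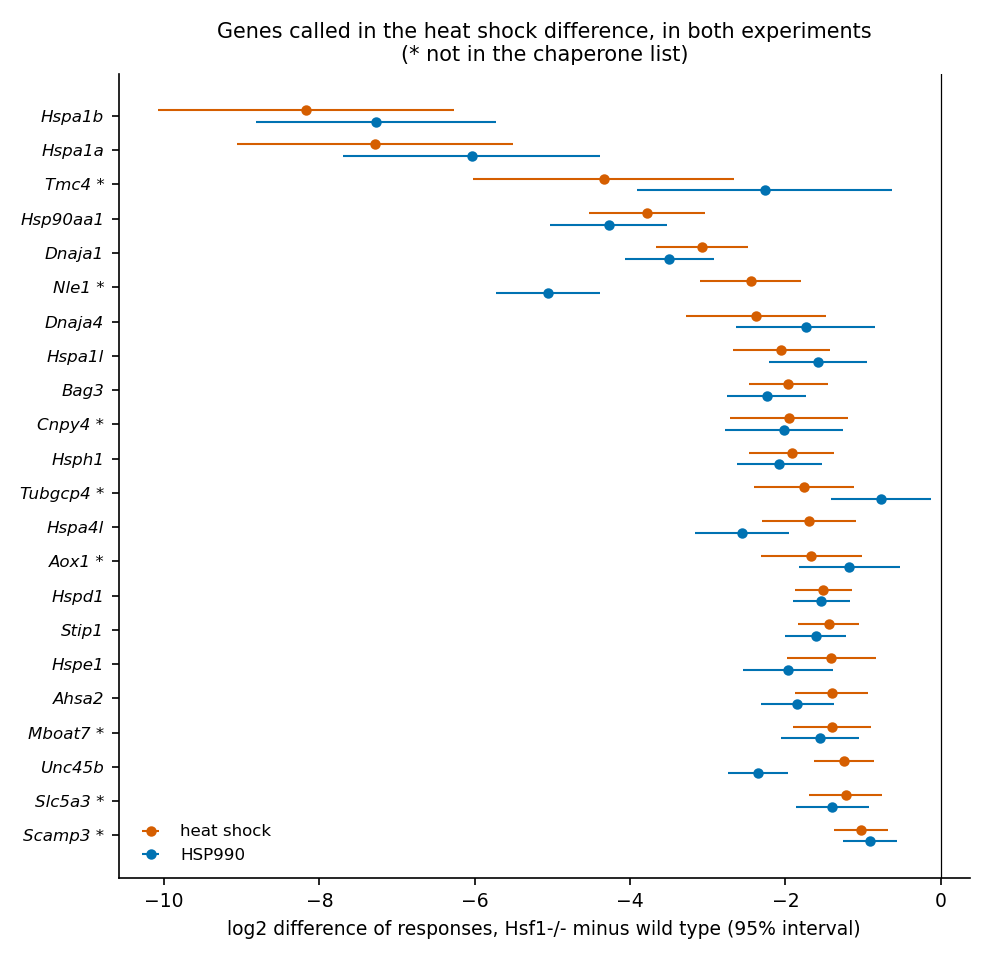
Log2 difference of responses, Hsf1-/- minus wild type (x axis), with 95% intervals for the 22 genes called in the HS experiment (orange) and the same genes in other mice after HSP990 (blue). All 44 points lie below 0; the intervals of Nle1 and Unc45b do not overlap between the experiments.

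Just past the threshold, 14 genes had an adjusted p of 0.05 to 0.2, and 13 of them had a lower change in Hsf1-/- mice. These were looked at after their values were seen. For 8 of the 13 the HSP990 difference was called lower: Dnajb1, Serpinh1, Atp2c1, P4ha1, Swt1, Gprasp1, Tmed8 and Rbm8a. Serpinh1, the collagen chaperone of the endoplasmic reticulum, was at 112 and 123 CPM in wild type control mice, 382 and 457 CPM in wild type HS mice, 72.4 and 68.5 CPM in Hsf1-/- control mice and 80.8 and 69.7 CPM in Hsf1-/- HS mice. P4ha1, the catalytic subunit of collagen prolyl hydroxylase, was at 34.5 and 40.05 CPM, 69.8 and 66.9 CPM, 19.1 and 23.7 CPM, and 20.3 and 20.8 CPM. Both are needed to build collagen, both stood high only in wild type HS mice, and their differences were -1.74 (-2.54 to -0.94, adjusted p = 0.12) and -0.93 (-1.39 to -0.47, adjusted p = 0.19) after HS, and -2.50 ± 0.38 and -1.69 ± 0.22 after HSP990. Atp2c1, the calcium and manganese pump of the Golgi, was at 50.3 and 37.3 CPM, 134 and 145 CPM, 35.4 and 42.8 CPM, and 38.8 and 34.1 CPM, with differences of -1.77 (-2.57 to -0.97, adjusted p = 0.12) and -2.22 ± 0.38. The 1 gene with a higher change was Herc2, a ubiquitin ligase, at 252 and 303 CPM, 218 and 172 CPM, 169 and 177 CPM, and 255 and 239 CPM, with a difference of 1.02 (0.59 to 1.45, adjusted p = 0.070) after HS and -0.19 ± 0.20 after HSP990.

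A smaller change in Hsf1-/- mice can come from the level after heat or from the level before it. All 22 called genes were also called lower in Hsf1-/- HS than in wild type HS mice, by a median of -2.16. Over all genes tested, 93 were called lower in that comparison. It uses the same HS mice on which the 22 were chosen, which favours a lower level. None of the 22 was higher in Hsf1-/- control than in wild type control mice even at an unadjusted p below 0.05. Before heat, 3 of the 22 were called lower in Hsf1-/- mice (Dnaja1, Hsph1 and Ahsa2), against 1.17% of all genes. Called or not, 21 of the 22 lay lower before heat, with a median untreated log2 difference of -0.40 against -0.02 over all genes. Among the 60 chaperones tested, 9 were called lower and 0 higher before heat, with a list median of -0.29. In these mice age and Y-linked counts cannot be told apart from genotype. By qPCR in a larger set of mice, the paper reports that basal HSP gene levels in muscle did not differ between these genotypes. The cause of this disagreement was not tested. Of the 219 genes that rose in wild type mice, 92 had a lower change in Hsf1-/- mice at an unadjusted p below 0.05. They were selected on the same wild type mice, which favours a lower change. For 62 of the 92 the level after heat was lower in Hsf1-/- mice and the untreated level was not higher. For 23 the untreated level was higher in Hsf1-/- mice and the level after heat was not lower, and 3 showed both.

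Ucp3 and Pdk4 were among the 23 genes of the second kind and were picked after their values were seen. Ucp3, a mitochondrial uncoupling protein of fat-burning muscle, was at 125 and 136 CPM in wild type control mice, 1221 and 1097 CPM in wild type HS mice, 549.7 and 592 CPM in Hsf1-/- control mice and 575 and 716 CPM in Hsf1-/- HS mice, with a difference of -2.97 (-4.25 to -1.69, adjusted p = 0.081). Pdk4, the kinase that turns off pyruvate entry into mitochondria, was at 278 and 378 CPM, 3267 and 1892 CPM, 2478 and 2383 CPM, and 4180.0 and 2936 CPM, with a difference of -2.43 (-3.69 to -1.17, adjusted p = 0.30). In both, the Hsf1-/- control mice stood above the wild type control mice before heat, and for Pdk4 they lay between the wild type HS mice. The untreated difference was called higher for Ucp3 (2.13 ± 0.44) and Pdk4 (2.89 ± 0.45), among 0.763% of all genes. DESeq2 on the 24 libraries called the HS difference of both, with an adjusted p of 0.0016 for Ucp3 and 0.04996 for Pdk4. After HSP990 the differences were -0.49 ± 0.59 and 0.96 ± 0.59, neither called.

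Targets of the glucocorticoid receptor, which hormone released under stress activates, gave the largest rise of any list in wild type mice. Of 25 tested, 13 rose in wild type mice, 0 were called in Hsf1-/- mice and 0 in the difference. Over all genes these shares were 1.59%, 0.00727% and 0.160%, so 0 of 25 in the last 2 is near the background. The medians were 1.78 in wild type, 0.76 in Hsf1-/- mice and -1.04 for the difference, against -0.01, 0.00 and 0.01 over all genes, and the untreated median was 0.49 higher in Hsf1-/- mice. Tsc22d3 (GILZ), a direct glucocorticoid target, was at 175 and 192 CPM in wild type control mice, 565 and 521 CPM in wild type HS mice, 342 and 348 CPM in Hsf1-/- control mice and 566 and 487 CPM in Hsf1-/- HS mice. Its difference was -0.96 (-1.66 to -0.25) and was not called, and the heated mice of the genotypes overlapped. Cebpd, a transcription factor of the acute stress response, was at 15.1 and 16.6 CPM, 224 and 148 CPM, 48.7 and 68.2 CPM, and 161 and 154 CPM. Klf9, a circadian and hormone-induced repressor, was at 203 and 200.5 CPM, 359 and 324 CPM, 370.4 and 346 CPM, and 399 and 449 CPM. In these 3 genes both untreated Hsf1-/- mice lay above both untreated wild type mice, which was called for Klf9 (0.83 ± 0.18). When only the 8 libraries were fitted, 5 of the 25 were called in the difference and 11 in Hsf1-/- mice.

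**Figure D4:**
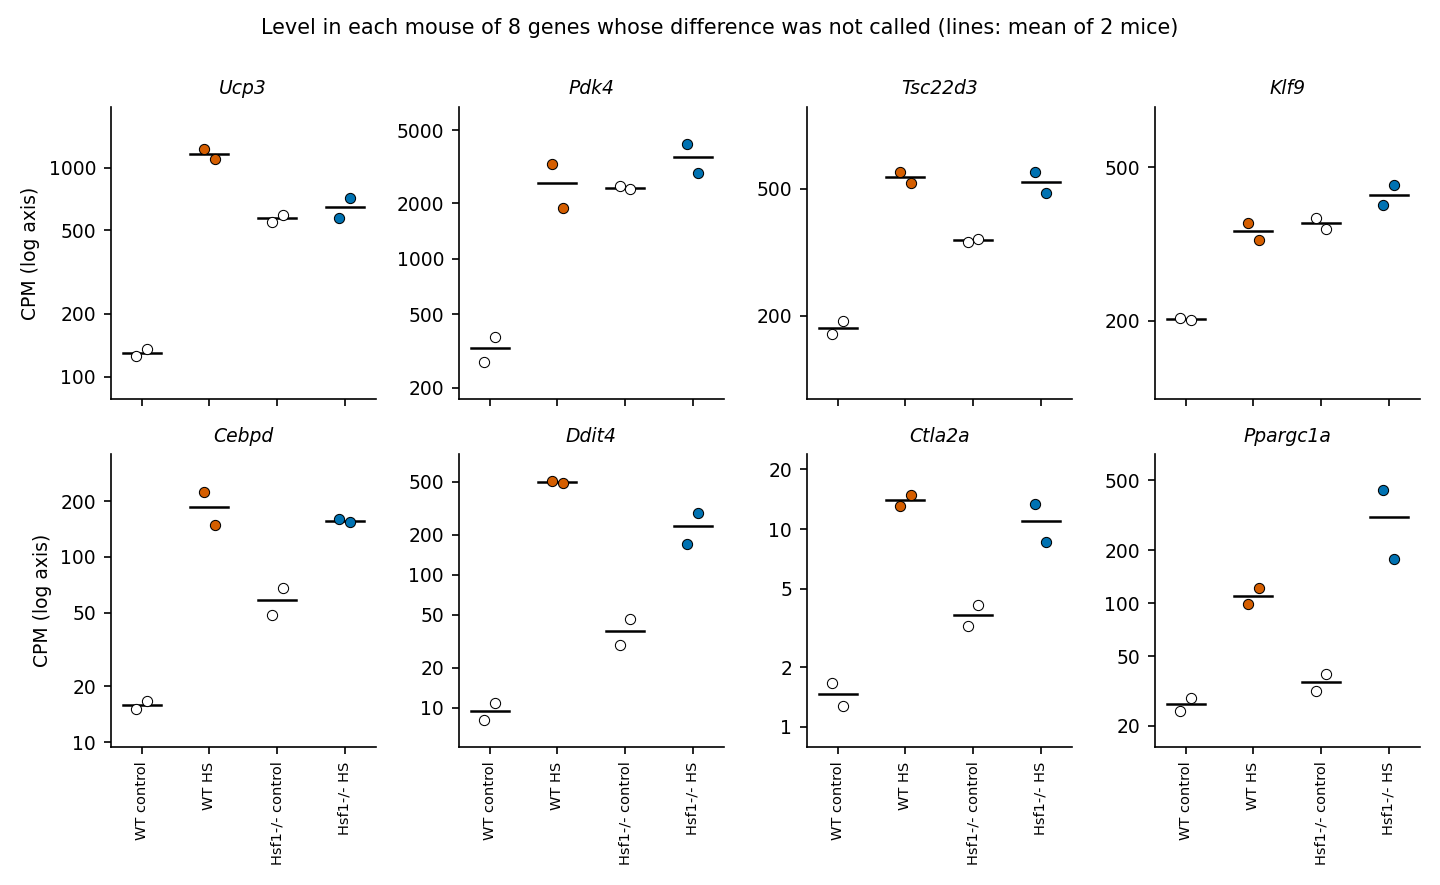
CPM (log axis) in each mouse of the HS experiment for 8 genes that edgeR did not call in the difference (DESeq2 on the 24 libraries called Ucp3, Pdk4 and Ctla2a), with the mean of 2 mice as a bar. In Ucp3, Pdk4, Tsc22d3, Klf9, Cebpd, Ddit4 and Ctla2a the Hsf1-/- control mice (second pair of open points) lie above the wild type control mice; Ppargc1a rose in both genotypes.

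The response that remained without Hsf1 was mostly below the threshold. In Hsf1-/- mice 1 gene was called (0.00727%), Ppargc1a, and DESeq2 on the 24 libraries called 161. At an unadjusted p below 0.05 in edgeR's test, 684 genes were higher (4.97%) and 527 lower (3.83%). Many genes pass such an unadjusted limit without any change. Ppargc1a, the coactivator PGC-1alpha that drives mitochondrial biogenesis after exercise and cold, was at 24.4 and 28.9 CPM in wild type control mice, 98.5 and 122 CPM in wild type HS mice, 31.7 and 39.4 CPM in Hsf1-/- control mice and 441 and 178 CPM in Hsf1-/- HS mice. It rose by 2.05 ± 0.41 in wild type mice and 3.12 ± 0.42 in Hsf1-/- mice, and the difference was 1.08 (-0.09 to 2.25). Without Hsf1-/- control replicate 1, or without Hsf1-/- control replicate 2, no gene was called in Hsf1-/- mice, and without Hsf1-/- HS replicate 2 there were 28.

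The genes called in wild type mice were then read in the Hsf1-/- mice, which are other animals. Of the 219 rises, 190 had the same sign in Hsf1-/- mice (86.8%) and 125 (57.1%) were higher at an unadjusted p below 0.05, against 4.97% of all genes. Of the 64 falls, 64 had the same sign and 37 (57.8%) were lower at that level, against 3.83% of all. The medians were 1.51 and 0.70 for the rises, and -1.12 and -0.51 for the falls. For 113 rises and 35 falls the response was seen in Hsf1-/- mice and the difference of responses had an unadjusted p of 0.05 or more. This does not show equal responses, since the 95% interval of the difference reached a median of 0.84 to each side for the rises and 0.69 for the falls that were not called.

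Examples of such rises, picked by size after their values were seen, came from other pathways than protein folding. Nr4a3, an immediate early nuclear receptor, was at 4.36 and 7.54 CPM in wild type control mice, 45.1 and 56.9 CPM in wild type HS mice, 8.12 and 6.52 CPM in Hsf1-/- control mice and 142 and 63.0 CPM in Hsf1-/- HS mice, with a difference of 0.71 (-0.95 to 2.36). Mt2, a zinc-binding metallothionein, was at 8.05 and 10.3 CPM, 231 and 330.4 CPM, 14.3 and 8.65 CPM, and 153 and 82.2 CPM, with a difference of -1.57 (-4.18 to 1.04). Both pairs of heated mice lay above all control mice in these genes. Slc7a5, a carrier of large neutral amino acids, was at 0.360 and 0.821 CPM, 1.90 and 3.20 CPM, 0.398 and 0.662 CPM, and 2.53 and 2.50 CPM, with a difference of 0.18 (-1.08 to 1.43). Over 28 immediate early genes the median change was 0.74 in wild type and 0.78 in Hsf1-/- mice, with 4 called in wild type and 0 in the difference. Over all genes, 1.59% were called higher in wild type mice and 0.160% in the difference. For this list, 0 of 28 in the difference is near the background. The median of the per-gene differences was -0.26, with 16 genes below 0 and 12 above, and 1 gene was called in the difference by DESeq2 on the 24 libraries and likewise when only the 8 libraries were fitted.

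Across 45 lists, members called in the difference were found in 2, the chaperones and the known HSF1 targets, although 19 lists had a member that rose or fell in wild type mice. With 0.160% of all genes called in the difference, 0 calls in a list of this size is near the background, so the other 43 lists are not set apart by having none. The slow fibre sarcomere genes had values below 0 in Hsf1-/- mice. Their median change was -0.22 in wild type and -1.16 in Hsf1-/- mice. All 14 had a difference below 0, with a median of -1.06, against 6637 of all 13754 genes below 0, and 0 were called. Summed over the list, levels were 2191 and 1933 CPM in wild type control and 3034 and 3939 CPM in wild type HS mice. They were 3215 and 2984 CPM in Hsf1-/- control and 3047 and 1700 CPM in Hsf1-/- HS mice. The sum thus rose in wild type mice, and of the Hsf1-/- HS mice only replicate 2 lay below both controls. When only the 8 libraries were fitted, 7 of the 14 were called in Hsf1-/- mice and 1 in the difference, and DESeq2 on the 24 libraries called 1 in Hsf1-/- mice. Tpm3, the slow tropomyosin, was at 14.1 and 15.1 CPM in wild type control mice, 16.97 and 15.6 CPM in wild type HS mice, 33.4 and 32.2 CPM in Hsf1-/- control mice and 11.4 and 4.17 CPM in Hsf1-/- HS mice, with a difference of -2.23 (-3.85 to -0.61) that was not called. Before heat the median of the list was 0.84 higher in Hsf1-/- mice, and the share of slow fibres in each piece of muscle was not measured.

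**Figure D5:**
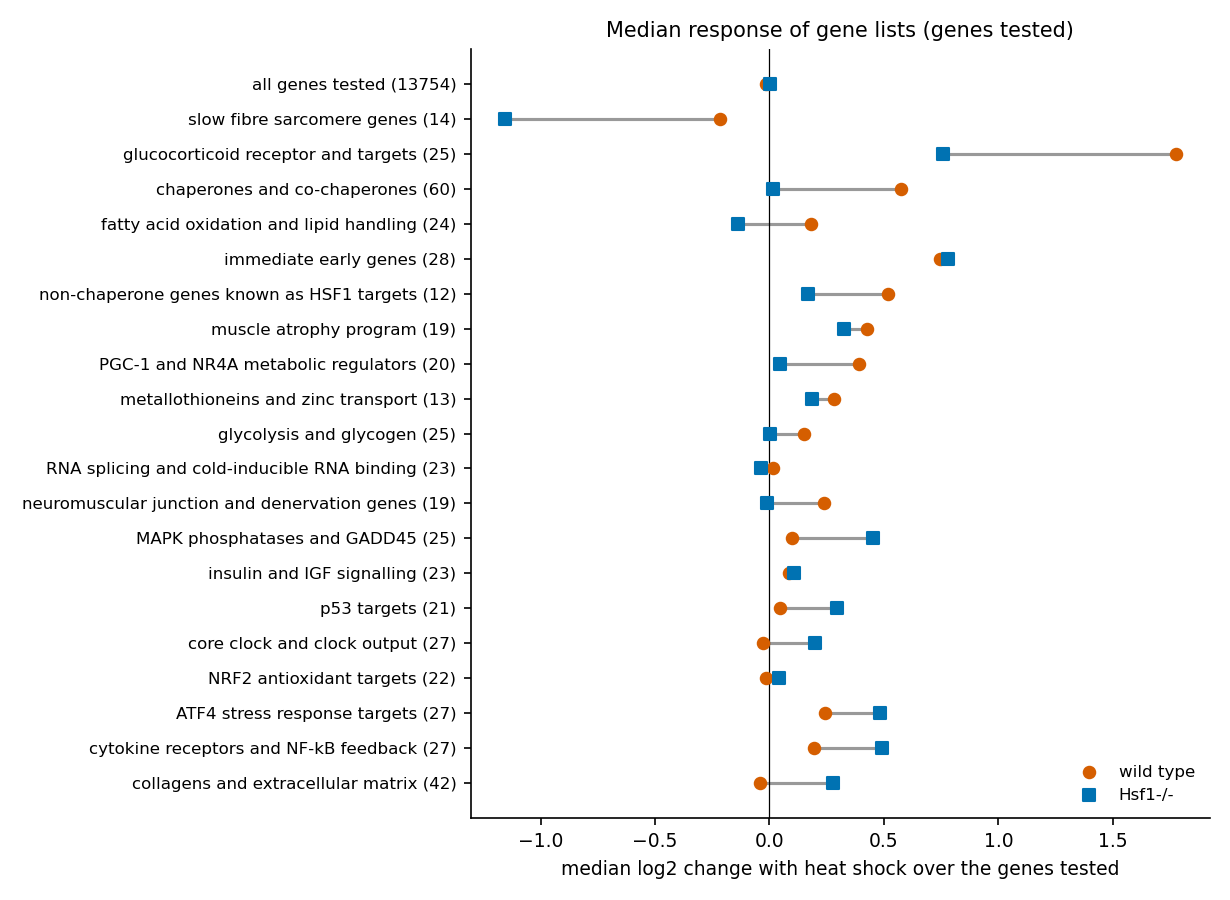
Median log2 change with HS (x axis) of 19 gene lists with a member called in wild type mice, of the slow fibre sarcomere genes and of all genes tested, in wild type (orange circles) and Hsf1-/- mice (blue squares); the number of genes tested is in brackets. The chaperones moved from 0.57 to 0.01, the glucocorticoid targets from 1.78 to 0.76, and the immediate early genes lay at 0.74 and 0.78.

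How firmly each of the 22 calls stands was read by leaving out each of the 8 mice. The call held whichever mouse was left out for 10 genes: Hspa1a, Hspa1b, Hsp90aa1, Dnaja1, Hsph1, Bag3, Stip1, Unc45b, Hspd1 and Nle1. Nle1 was thus the single gene outside the chaperone list whose call rested on no 1 mouse. Hspa1l lost it without wild type control replicate 1 alone (adjusted p = 0.053). The calls of Tmc4, Cnpy4, Aox1, Dnaja4 and Hspe1 were lost whichever of the 8 mice was left out, with adjusted p values of up to 0.29, 0.29, 0.29, 0.24 and 0.40, and those of Tubgcp4, Scamp3, Mboat7, Slc5a3, Hspa4l and Ahsa2 under 4 to 7 of the 8. In every one of these fits all 22 differences stayed below 0. Scaling by library size alone lost 8 calls, those of Aox1, Cnpy4, Mboat7, Scamp3, Slc5a3, Tmc4 and Tubgcp4, which are 7 of the 8 genes outside the chaperone list, and that of Hspe1. The fit of only the 16 wild type and Hsf1-/- libraries lost 5, those of Aox1, Cnpy4, Slc5a3, Tubgcp4 and Hspa4l.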

How the data were processed

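RNA of quadriceps femoris was sequenced by the authors as polyA-selected, strand-specific, paired-end libraries, aligned with Bowtie to mm9, and deposited as raw counts per gene, with no normalization. The counting program, its annotation and its strand setting are not given in the sources used here. Of 18669 genes, 18594 matched a symbol and 18267 mm9 coordinates. A gene entered the tests if 10 or more of the 24 libraries gave it 2 or more counts (13754 genes). The counts were fitted with edgeR 4.0.16 (R 4.3.3), with TMM factors and a quasi-likelihood model of 12 groups of 2 mice with 12 residual degrees of freedom. The heat shock response of each genotype, the difference of the responses, the untreated difference and the difference of the HSP990 responses were contrasts of that fit, tested two-sided, with Benjamini-Hochberg adjustment over all genes, and every adjusted p in the text comes from it unless DESeq2 is named. Intervals are 95% and not adjusted. CPM use the TMM factors. The 8 libraries held 23883708 to 33192334 counts, and counts limit low genes such as Tmc4 most. The labels name separate mice.

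The members and gene lists were chosen with earlier results of these data known. The rule named the genes measured by qPCR, called genes outside the chaperone list by size, up to 3 called members of each list and genes called in both genotypes. The other chaperones, the genes just past the threshold and the examples of uncalled genes were chosen after their values were seen. Alternatives were other scalings, filters, sets of libraries, a replicate block, DESeq2 1.42.0 and leaving out each mouse. Near-identical copies (at most 2% divergence over at least 50% of the transcript) were sought with minimap2 2.31-r1302. The fit was tested on simulated data. Promoters came from RefSeq (GRCm38.p6), where Hsp90aa1 and Scamp3 were not matched.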

Additional observations from a re-analysis of the deposited data

Results flagged for a closer look

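For 22 genes the response to HS differed between the genotypes by the test of the difference itself (edgeR's quasi-likelihood test, adjusted p below 0.05), and these values are log2 differences of the responses, Hsf1-/- minus wild type. The HSP70 group differed by -8.18 (Hspa1b), -7.28 (Hspa1a) and -2.05 (Hspa1l), and its partners by -3.08 (Dnaja1), -2.38 (Dnaja4), -1.96 (Bag3), -1.92 (Hsph1) and -1.69 (Hspa4l). The HSP90 group differed by -3.79 (Hsp90aa1), -1.44 (Stip1), -1.41 (Ahsa2) and -1.25 (Unc45b), and the mitochondrial pair by -1.51 (Hspd1) and -1.41 (Hspe1). Outside the chaperones the values were -4.34 (Tmc4), -2.45 (Nle1), -1.96 (Cnpy4), -1.76 (Tubgcp4), -1.67 (Aox1), -1.40 (Mboat7), -1.23 (Slc5a3) and -1.03 (Scamp3). Age and Y-linked counts went with genotype in these 8 mice, and their part in the values was not tested. The groups of 2 mice were too small to look for single outlying mice.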

How the results depend on the processing

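All 22 differences stayed below 0 in all 19 alternatives, and 10 of the 22 were called in each of them. In the difference, 44 genes were called when only the 8 libraries were fitted (42 lower, 2 higher), 40 with DESeq2 on the 24 libraries (38 and 2), 121 with DESeq2 on the 8 (104 and 17) and 10 to 16 when 1 mouse was left out (10 to 15 lower, 0 to 1 higher). With library size only, 14 were lower and 1 higher, and 7 of the 8 genes outside the chaperone list lost their call (all but Nle1), as did Hspe1. With only the 16 wild type and Hsf1-/- libraries 1 was higher, and Aox1, Cnpy4, Slc5a3, Tubgcp4 and Hspa4l lost their call. A direct comparison of the genotypes after HS past a limit on the fold gave 102, of which 22 were also called in the difference. In wild type mice the count moved to 519 (8 libraries), 438 (16 libraries), 542 and 791 (DESeq2 on 24 and 8), and to 40 to 264 with 1 mouse left out. Dropping wild type control replicate 1 gave the lowest count, 40, and dropping control replicate 2 gave 64, while dropping wild type HS replicate 1 left 123 and HS replicate 2 left 93. In Hsf1-/- mice the count of 1 moved to 6 with RLE factors, 6 without the 20 most abundant genes in TMM, 28 with no filter, 140 (8 libraries), 51 (16 libraries), 161 and 379 (DESeq2 on 24 and 8), 0 with the robust setting and 0 to 28 with 1 mouse left out. The cause of these moves was not tested. Hsf1 itself, not called, ranged from -0.036 to 0.20 with 1 mouse left out, the first value without Hsf1-/- control replicate 2.

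Same-numbered mice shared only a number (correlations of deviations from -0.197 to 0.239). With the replicate block, 20 genes were called in the difference, 280 in wild type, 9 in Hsf1-/- mice, 185 in the untreated difference and 54 in the HSP990 difference. Low counts limit Tmc4 and the HSP70 genes outside wild type HS mice.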

Other observations

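R6/2 mice, which carry a mutant huntingtin transgene and were 12 weeks old, were also given HS, and the called genes were read there as a description. Of the 22, 19 had a log2 change with HS above 0, with a median of 0.37 and a range from -0.21 (Dnaja4) to 4.39 (Hspa1b). Hspa1b was at 8.94 and 2.00 CPM in R6/2 control mice and 124 and 106 CPM in R6/2 HS mice, and Hsp90aa1 was at 19.8 and 11.2 CPM, then 50 and 47.7 CPM. Both genes stood higher in both heated R6/2 mice, with changes of 4.39 ± 0.50 and 1.65 ± 0.24. By qPCR the paper reports the latter gene as unchanged by heat shock in this genotype too. The 8 genes outside the chaperone list had a median of 0.28 and a range from -0.06 (Mboat7) to 0.72 (Nle1). Nle1 was at 7.40 and 8.48 CPM in R6/2 control mice and 16.3 and 9.77 CPM in R6/2 HS mice, a change of 0.72 ± 0.21 (edgeR adjusted p = 0.26). These changes were not tested against those of wild type mice.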
